A study of Homo sapiens with 6 samples.

Results

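Membrane genes of caveolae and cell-surface receptors were examined, some of which are used as markers of mesenchymal breast cancer cells. To this end, 9 genes were followed in RNA-seq data of cells with and without Smyca knockdown. The genes were given by name, and they are the caveolins CAV1 and CAV2, the cavins CAVIN1 and CAVIN3, the caveola ATPase EHD2, the receptors AXL, EPHA2 and MET, and the hyaluronan receptor CD44. Each was matched by symbol to 1 of the 58302 Ensembl genes of the count tables, and all 9 were among the 15075 genes with enough counts to be tested. The libraries were made from total RNA of cells labelled MDA-MB231, the name (also written MDA-MB-231) of an established triple-negative breast cancer line. There were 3 libraries of cells expressing a control shRNA and 3 of cells expressing Smyca shRNA #1, with no other treatment in the labels. Smyca is a long non-coding RNA that the study examined as a coactivator of Smad and c-Myc, and a single shRNA stood for its knockdown. Each difference is given as control over Smyca knockdown, so a positive log2 fold change is a higher level with the control shRNA.

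Caveolae are small flask-shaped pits of the plasma membrane. Caveolin-1, with caveolin-2 as its partner, inserts into the inner leaflet, the cavins form a coat on it, and EHD2 sits at the neck of the pit and holds it at the surface. AXL, EPHA2 and MET are receptor tyrosine kinases that bind GAS6, membrane-bound ephrin-A ligands and hepatocyte growth factor, respectively, and CD44 binds hyaluronan in the matrix. High levels of CAV1, AXL and CD44 are well-known features of mesenchymal, basal B breast cancer lines.

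The libraries held between 14999307 and 16501085 counts. Smyca, annotated as MIR23AHG (ENSG00000267519), was at 25.0, 19.5 and 22.0 normalized CPM, its counts relative to the TMM-scaled library size, in control repeats 1, 2 and 3 and at 10.5, 6.97 and 5.61 in knockdown repeats 1, 2 and 3. Its log2 fold change was 1.53 (standard error 0.26, adjusted p = 0.111 by the quasi-likelihood test of edgeR with Benjamini-Hochberg adjustment). The groups did not overlap, and the gene was lower in each of the 3 knockdown libraries. A gene was called different when its ratio was at least 1.5 or at most 0.66 with an adjusted p under 0.05, and 4 of the 15075 genes were called, or 0.0265%.

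Several measured facts about the libraries preceded the results. The labelled cell line was checked against marker genes, and the markers went against the label in all 6 libraries. CDKN2A, a gene at a locus that MDA-MB-231 is known to lack, was at 335 to 429 normalized CPM in every library. All 9 epithelial markers were at 10 normalized CPM or more in every library, with KRT8 at 4249 to 7408, KRT18 at 987 to 1379, KRT19 at 850 to 1957, EPCAM at 236 to 336, CDH1 (E-cadherin) at 71.5 to 300, ESRP1 at 128 to 188, CLDN4 at 144 to 265, CLDN7 at 48.4 to 115 and CLDN3 at 12.4 to 20.0. Of 11 gut or liver epithelial markers, 4 reached that level in every library, which were VIL1 (220 to 501), HNF4A (65.4 to 194), FOXA2 (118 to 153) and FOXA3 (33.0 to 85.5). CDX2 was at 6.08 to 11.1, while CDH17 and LGALS4 had at most 4.25 and 1.34, APOA1 and ALB at most 1 and 4 counts, and CDX1 and AFP 0 counts. Of 7 mesenchymal or basal B markers, 4 reached 10 normalized CPM in every library, which were MSN (341 to 767), VIM (71.2 to 305), FOSL1 (81.5 to 255) and TGFBI (76.4 to 118), and ZEB1 was at 6.22 to 12.9, LOX at 1.46 to 5.02 and SPARC at no more than 0.677. Of the luminal breast markers, ERBB2 was at 46.7 to 72.2 and GATA3 at 1.25 to 3.86, ESR1 had at most 3 counts and PGR had 0. The cells are therefore named below only as the libraries are labelled, and what they are was not tested.

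The summed markers of the gut or liver list lay apart between the groups, which was not tested. They lay between 458 and 747 normalized CPM in the control and between 816 and 877 in the knockdown, with no overlap. VIL1, which had the largest level of that list, was higher in each knockdown library (adjusted p = 0.155 in edgeR). HNF4A overlapped between the groups (adjusted p = 0.492 in edgeR). Both were lowest in control repeat 3, at 220 and 65.4 normalized CPM. They were at 337 and 168 in control repeat 1 and at 343 and 187 in control repeat 2. The list did not move as one, since LGALS4, at a low level, was higher in each control library, and FOXA2, FOXA3, CDX2 and CDH17 overlapped. The summed mesenchymal list lay between 744 and 1420 in the control and between 760 and 1075 in the knockdown, and the epithelial list between 7361 and 8704 and between 7919 and 10678. Within the epithelial list, KRT8 and ESRP1 were higher in each knockdown library than in any control library, CLDN4 was lower, and the other markers overlapped. Over all genes tested, the groups did not overlap for 24.8%, a share that stands beside each list of this paragraph. Within the mesenchymal list, VIM, ZEB1 and FOSL1 were higher in each control library than in any knockdown library, whereas TGFBI was lower and MSN and LOX overlapped. The adjusted p in edgeR was 0.131 for VIM, 0.149 for ZEB1 and 0.114 for FOSL1. SPARC was also higher in each control library, but it had at most 11 counts and was not tested. No marker of these lists was called by edgeR. The part of such markers in the results below was not tested, and in RNA from many cells fewer cells of a type and less RNA per cell cannot be told apart.

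**Figure D1:**
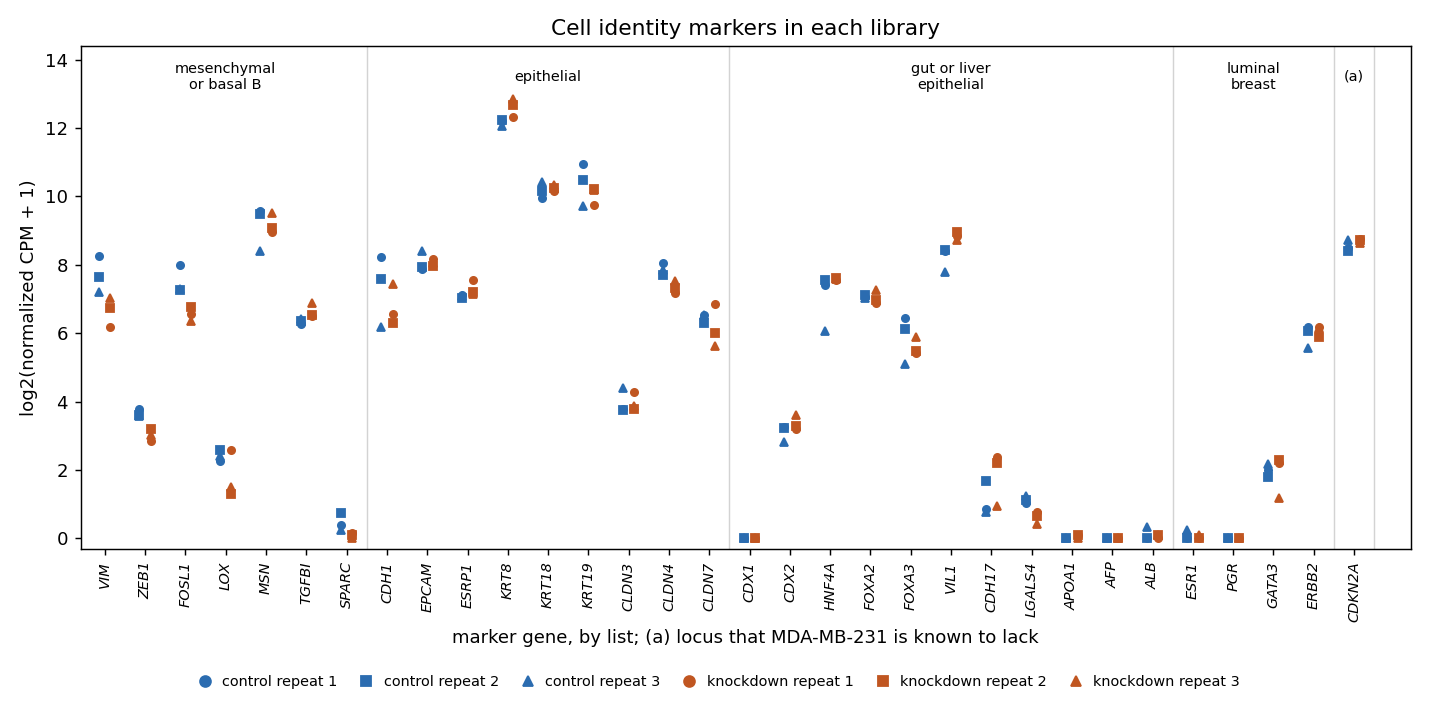
Levels of the cell identity markers in each library, as log2(normalized CPM + 1), with control libraries in blue and knockdown libraries in orange. KRT8 and the other epithelial markers, VIL1 and CDKN2A are high in all 6 libraries, while AFP, CDX1 and PGR are at 0.

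Libraries also differed within each group. Control repeat 3 stood apart from control repeats 1 and 2, with a chi-square per degree of freedom over genes of 107 and 70.6 against 22.0 between repeats 1 and 2. Knockdown repeat 3 also stood apart, at 42.2 and 35.1 from knockdown repeats 1 and 2 against 19.6 between those. In control repeat 2, the deposited FPKM column did not follow the counts of the same table. The whole reads behind that column differed from the counts of control repeat 3 by a chi-square per degree of freedom of 2.64 and from the counts beside it by 74.8. Which of the columns belongs to that library was not tested, so the members are also given with those reads in place of its counts. Since the libraries differed from each other by 19.6 or more, that setting may come close to entering control repeat 3 a second time, and its control group may then hold 2 independent libraries rather than 3. Its p-values and overlaps are to be read with that limit.

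CAV1 and CAV2 lie side by side on the plus strand of chromosome 7, with CAV1 at chr7:116525009-116561185 and CAV2 at chr7:116499738-116508541 in RefSeq on GRCh38.p14. Their upstream sequence is shown because both were among the genes with a p under 0.05, and that of EHD2 (chr19:47713422-47743134, plus strand) because it had the largest fold change of the 9 genes. Each line gives the 250 bases before the first RefSeq start of the gene on GRCh38.p14, all on the plus strand, and covers chr7:116499488-116499737 for CAV2, chr7:116524759-116525008 for CAV1 and chr19:47713172-47713421 for EHD2. Capitals mark GC boxes, the letters GGGCGG or their reverse complement CCGCCC.
CAV2: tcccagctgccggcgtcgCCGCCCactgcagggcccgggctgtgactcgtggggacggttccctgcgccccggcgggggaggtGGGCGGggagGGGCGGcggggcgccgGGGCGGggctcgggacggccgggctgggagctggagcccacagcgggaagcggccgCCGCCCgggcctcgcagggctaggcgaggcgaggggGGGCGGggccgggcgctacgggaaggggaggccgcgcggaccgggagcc
CAV1: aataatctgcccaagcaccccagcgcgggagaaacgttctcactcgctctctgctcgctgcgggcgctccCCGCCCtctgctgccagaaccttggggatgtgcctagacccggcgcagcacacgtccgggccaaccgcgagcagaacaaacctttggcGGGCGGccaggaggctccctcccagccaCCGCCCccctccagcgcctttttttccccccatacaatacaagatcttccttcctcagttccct
EHD2: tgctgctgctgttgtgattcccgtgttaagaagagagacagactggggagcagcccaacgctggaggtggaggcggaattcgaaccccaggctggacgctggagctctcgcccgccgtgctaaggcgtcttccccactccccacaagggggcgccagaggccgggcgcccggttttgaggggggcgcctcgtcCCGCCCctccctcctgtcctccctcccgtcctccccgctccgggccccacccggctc
The stretches hold 6 GC boxes before CAV2, 3 before CAV1 and 1 before EHD2. In windows that run from 250 bases before to 50 bases after a start, the GC content was 82.7% for CAV2, 62.3% for CAV1 and 71.0% for EHD2, against a median of 58.7% over all 35116 RefSeq windows.

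RefSeq windows were given for 7 of the 9 genes, with 11 windows in all, and none was at hand for CAVIN1 and CAVIN3. The windows of a gene can overlap, and 2 of the 3 CAV1 windows share most of their bases and the same GC boxes. A GC box occurred in 10 of the 11 windows and in 45.0% of all windows. The AP-1 letters TGANTCA, where N is any base, occurred in 0 of 11 and in 7.71% of all, and the c-Myc E-box letters CACGTG occurred only in the window of MET and in 7.26% of all. The letters CAGAC of the Smad CAGA element occurred in 6 of 11 and in 45.3% of all. Both strands were searched, matches that overlapped were each counted, and a match of letters is a description that shows no binding.

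The 9 genes were not called as different by edgeR's quasi-likelihood test, with 0 of 9 called, against 0.0265% of all genes. DESeq2 also called 0 of 9, against 5.55% of all genes, and neither count is far from its share. The log2 fold changes had a median of 0.63, against a median of 0.036 over all 15075 genes, and 7 were above 0 and 2 below. That median was 0.32 without control repeat 1 and 0.39 with the FPKM-column reads of control repeat 2. An unadjusted p under 0.05 was seen for 5 of 9, namely EHD2, EPHA2, CAV1, CAV2 and CD44, and each of these had its higher mean in the control. Over all genes, 10.4% had such a p with the control higher and 19.2% had one in either direction. The members were chosen with earlier results of these data known, so the 5 of 9 and the median are a description. The 5 of 9 became 1 without control repeat 1, 1 without knockdown repeat 1 and 2 without knockdown repeat 2. It became 3 without control repeat 2 or knockdown repeat 3, with the repeat number as a block or with the FPKM-column reads. It was 4 without control repeat 3 and 6 with no filter on low counts. The count over all genes also changed with the setting, from 2893 of 15075 in either direction. It was 1730 of 15472 without control repeat 1, 2479 of 15641 without knockdown repeat 1 and 1687 of 15665 without knockdown repeat 2. It was 4575 of 15449 without control repeat 3 and 4019 of 30409 with no filter. The groups did not overlap for EHD2 and CAVIN3, 2 of 9, which is near the 24.8% of all genes. In every gene but CAVIN3 the highest control library was repeat 1, and in every gene but CD44 the lowest was repeat 3.

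**Figure D2:**
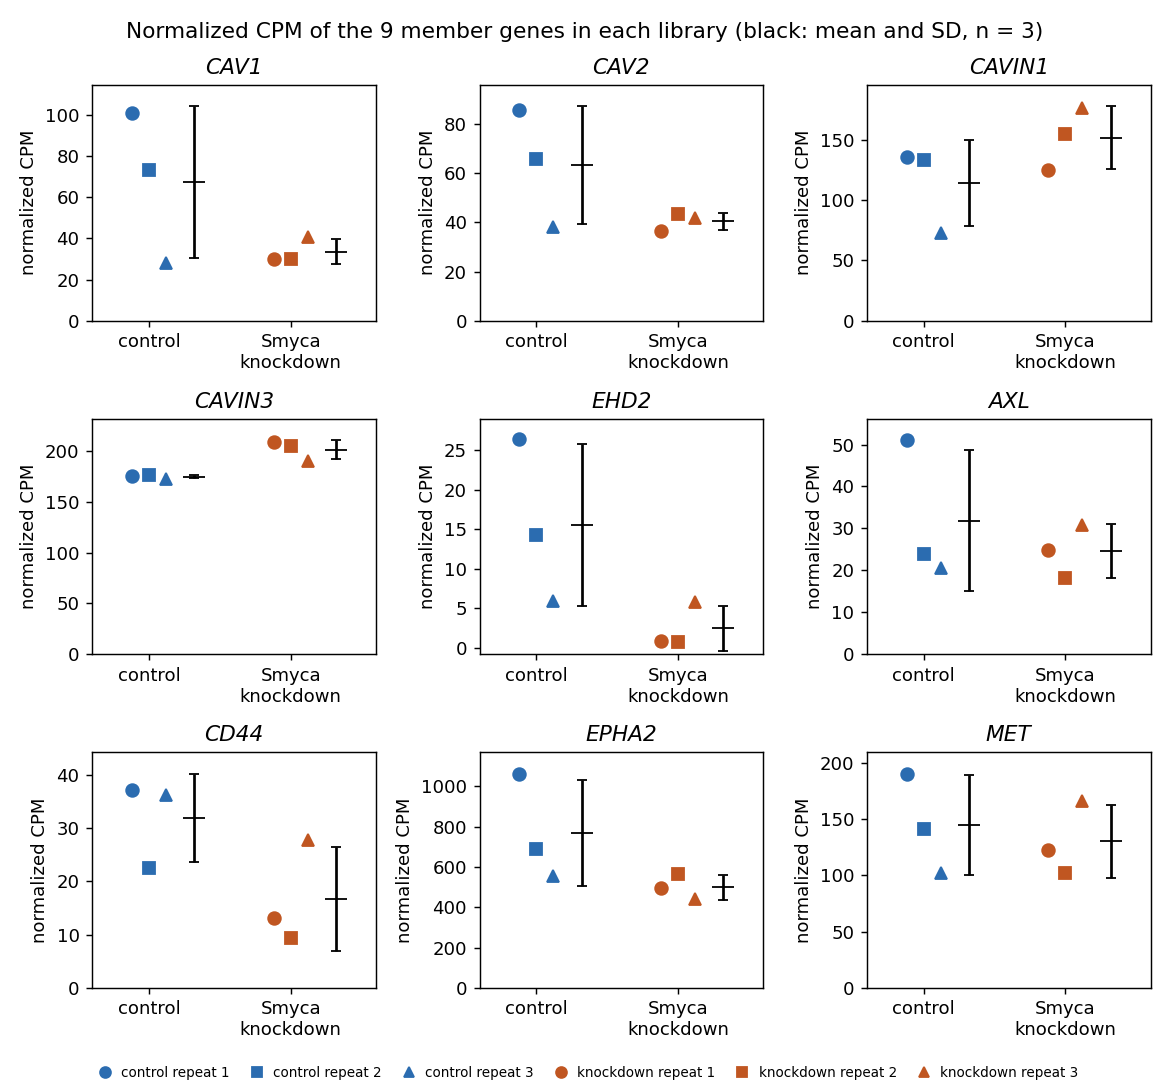
Normalized CPM of the 9 genes in each library on linear axes, with the mean and SD of the 3 libraries of each group in black. Control repeats 1 and 2 lie above the knockdown libraries for CAV1, CAV2, EHD2 and EPHA2, control repeat 3 lies near them, and CAVIN3 is narrow in both groups at 173 to 176 and 191 to 209.

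CAV1 (ENSG00000105974), which encodes the main structural protein of caveolae, was at 101, 73.2 and 27.9 normalized CPM in control repeats 1, 2 and 3 and at 30.0, 30.0 and 40.5 in the knockdown. Control repeats 1 and 2 were above every knockdown library, and control repeat 3 was below all of them. The log2 fold change was 1.01 (standard error 0.40), with an adjusted p of 0.218 in edgeR. CAV2 (ENSG00000105971), whose product needs caveolin-1 to reach the surface, was at 85.8, 65.8 and 38.1 in the control and at 36.4, 43.3 and 41.6 in the knockdown. Here too control repeats 1 and 2 were on top, with control repeat 3 among the knockdown libraries, and the log2 fold change was 0.65 (standard error 0.27, adjusted p = 0.237 in edgeR).

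The values of both caveolins depended on single control libraries. Without control repeat 3, the log2 fold change was 1.37 for CAV1 and 0.90 for CAV2, with adjusted p-values of 0.00754 and 0.0159 in edgeR. In that setting 4 of 9 genes were called higher in the control, CAV1, CAV2, EHD2 and EPHA2, against 6.50% of all genes tested. With no filter on low counts, CAV1 (adjusted p = 0.0271 in edgeR) and EHD2 (adjusted p = 8.95e-04) were called, against 1.87% of all genes. With the reads that the FPKM column of control repeat 2 gives, CAV1 had 445 there in place of 1189 counts and CAV2 had 629 in place of 1070. The log2 fold changes were then 0.60 (adjusted p = 0.523 in edgeR) and 0.39 (adjusted p = 0.525), and control repeat 1 alone stood above all knockdown libraries in both genes. Without control repeat 1, they were 0.60 and 0.37.

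The means of both cavins were higher in the knockdown, and neither gene passed the test. CAVIN1 (ENSG00000177469; chr17:42402449-42423256, minus strand), the cavin without which caveolae do not form, was at 136, 134 and 73.0 normalized CPM in the control and at 125, 155 and 176 in the knockdown. Its groups overlapped, with control repeats 1 and 2 between the knockdown libraries and control repeat 3 below. The log2 fold change was -0.41 (standard error 0.25, adjusted p = 0.401 in edgeR), and with the FPKM-column reads of control repeat 2, 1360 in place of 2172 counts, it was -0.68 (adjusted p = 0.194). Without control repeat 3, the lowest library, it was -0.18 (adjusted p = 0.527 in edgeR). CAVIN3 (ENSG00000170955; chr11:6318946-6320501, minus strand), which tunes the dynamics of caveolae, was the most even of the 9 genes, at 176, 176 and 173 in the control and at 209, 205 and 191 in the knockdown. Each knockdown library was above each control library by a small margin, and the log2 fold change came to -0.20 (standard error 0.13, adjusted p = 0.419 in edgeR). An lncRNA on the opposite strand, ENSG00000282556, shares 571 exon bases with CAVIN3 and had at most 11 counts in a library.

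EHD2 (ENSG00000024422), the ATPase at the neck of caveolae, was at 26.4, 14.3 and 5.96 normalized CPM in the control and at 0.889, 0.697 and 5.74 in the knockdown, from 428, 232 and 93 counts and from 14, 11 and 87 counts. The groups did not overlap, but control repeat 3 and knockdown repeat 3 were almost level. The log2 fold change of 2.67 (standard error 0.82) was the largest of the 9 genes, with an adjusted p of 0.148 in edgeR. Its size depended on single libraries, with a log2 fold change of 4.27 without knockdown repeat 3, 3.06 without control repeat 3 (adjusted p = 0.0341 in edgeR), 2.06 without control repeat 1 (adjusted p = 0.412), 2.27 without knockdown repeat 1 and 2.22 without knockdown repeat 2.

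Ratios of counts within a library do not depend on the scaling between libraries, and 4 of them were taken after the values had been seen. CAVIN1 over CAV1 had log2 ratios of 0.43, 0.87 and 1.39 in the control and of 2.06, 2.37 and 2.12 in the knockdown. The ratio of raw counts, which is not scaled for transcript length, was thus higher in every knockdown library than in any control library, with a mean difference of -1.29 for control minus knockdown. EHD2 over CAV1 had log2 ratios of -1.94, -2.36 and -2.23 in the control and of -5.08, -5.43 and -2.82 in the knockdown, again with no overlap. Both ratios gave p = 0.1 in the two-sided exact permutation test, the smallest p that 3 against 3 libraries allow, and 0.2 after Benjamini-Hochberg adjustment over the 4 ratios. CAVIN3 over CAV1 (exact permutation p = 0.2) and CAV1 over CAV2 (exact permutation p = 0.3) overlapped between the groups. With the FPKM-column reads of control repeat 2, whose CAVIN1 over CAV1 ratio was then 1.61, the mean difference of that ratio was -1.04 and the groups still did not overlap.

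**Figure D3:**
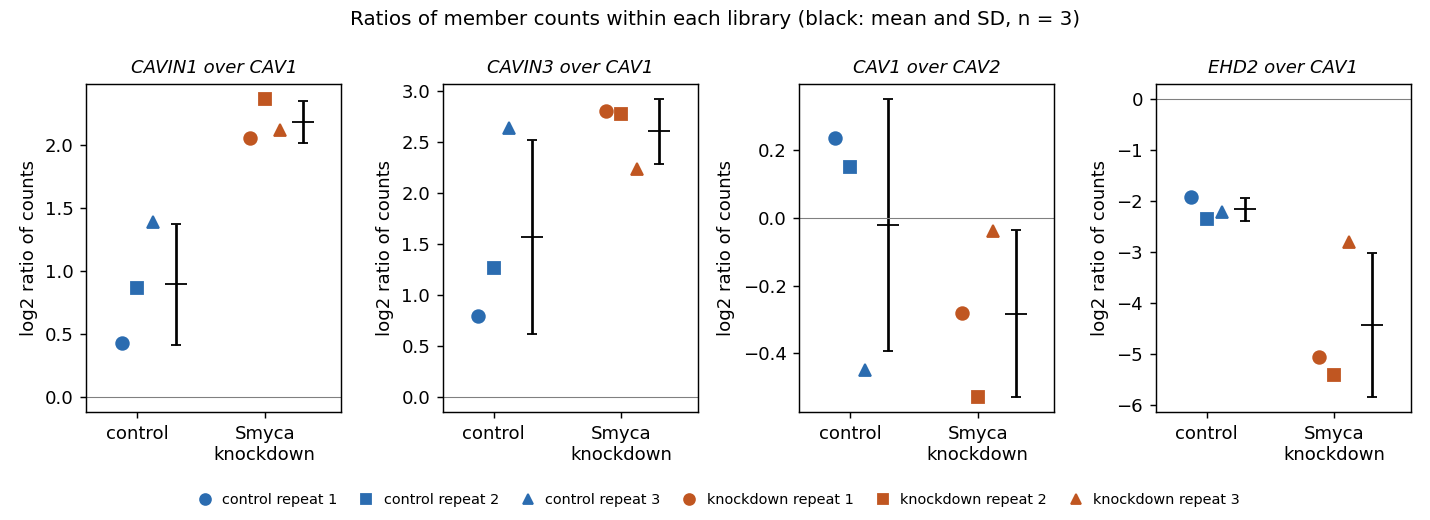
Log2 ratios of the counts of 2 genes within each library, with the mean and SD of the 3 libraries of each group in black. For CAVIN1 over CAV1 and for EHD2 over CAV1 the control and knockdown libraries do not overlap, whereas for the other ratios they do.

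AXL (ENSG00000167601; chr19:41219223-41261766, plus strand), the receptor for GAS6, was at 51.1, 24.0 and 20.6 normalized CPM in the control and at 24.8, 18.1 and 30.9 in the knockdown. Control repeat 1 stood above all others, and control repeats 2 and 3 lay within the range of the knockdown. Its log2 fold change was 0.37 (standard error 0.35, adjusted p = 0.585 in edgeR), and it was -0.14 without control repeat 1. An lncRNA on the opposite strand, ENSG00000269652, shares 67 exon bases with AXL and had at most 9 counts.

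CD44 (ENSG00000026508; chr11:35139171-35232402, plus strand), the receptor for hyaluronan, was at 37.2, 22.5 and 36.3 normalized CPM in the control and at 13.1, 9.31 and 27.8 in the knockdown. Control repeats 1 and 3 were above every knockdown library, and the overlap came from knockdown repeat 3, which lay above control repeat 2. Its log2 fold change was 0.94 (standard error 0.39), with an adjusted p of 0.237 in edgeR, and it was 1.504 without knockdown repeat 3, 0.78 without knockdown repeat 1 and 0.64 without knockdown repeat 2. With the FPKM-column reads of control repeat 2, 553 in place of 365 counts, that library was at 32.0 normalized CPM, the groups did not overlap, and the log2 fold change was 1.06 (adjusted p = 0.172 in edgeR). The antisense genes CD44-DT and CD44-AS1 share 70 and 84 exon bases with CD44 and had at most 2 and 6 counts.

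EPHA2 (ENSG00000142627; chr1:16124337-16156069, minus strand), a receptor for ephrin-A ligands, had the highest normalized CPM of the 9 genes, at 1064, 689 and 556 in the control and at 494, 563 and 441 in the knockdown. Control repeats 1 and 2 were above all knockdown libraries, and control repeat 3 was just below knockdown repeat 2. The log2 fold change was 0.63 (standard error 0.24), with an adjusted p of 0.210 in edgeR, and it was 0.80 without control repeat 3 (adjusted p = 0.0399) and 0.32 without control repeat 1. MET (ENSG00000105976; chr7:116672196-116798377, plus strand), the receptor for hepatocyte growth factor, was at 191, 141 and 102 in the control and at 123, 102 and 166 in the knockdown. Its groups overlapped over most of their range. The log2 fold change was 0.15 (standard error 0.26, adjusted p = 0.777 in edgeR), and it was -0.09 without control repeat 1 and -0.0032 with the FPKM-column reads of control repeat 2.

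**Figure D4:**
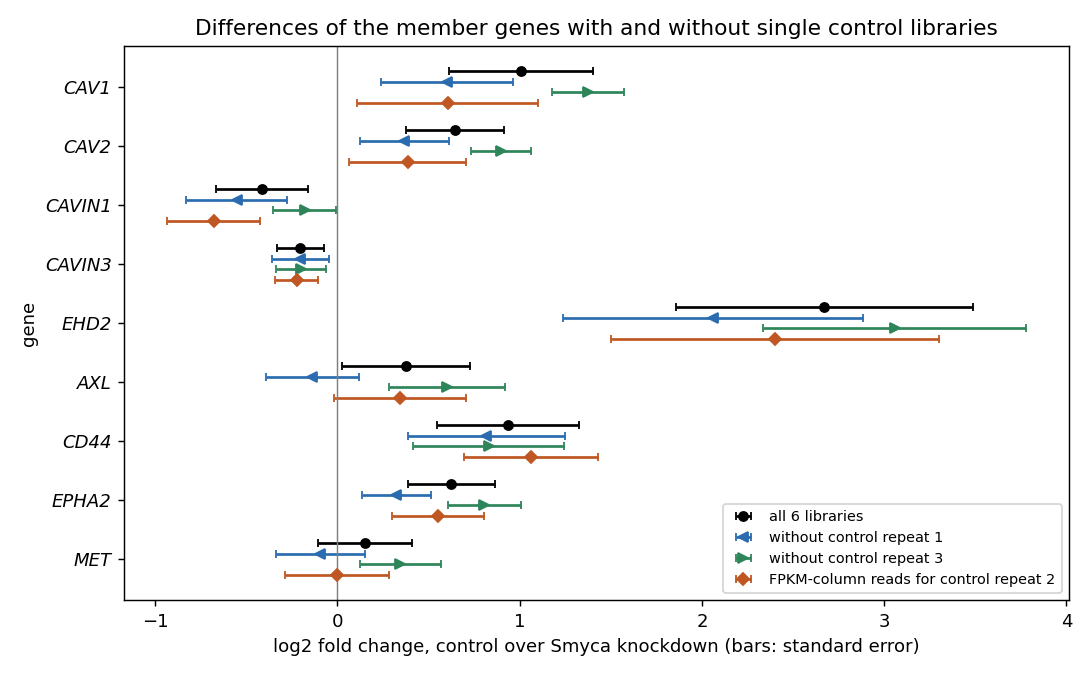
Log2 fold change of control over Smyca knockdown for the 9 genes with all 6 libraries, without control repeat 1, without control repeat 3, and with the FPKM-column reads of control repeat 2, with bars for the standard error. CAV1 moves from 1.01 to 1.37 without control repeat 3 and to 0.60 without control repeat 1, AXL from 0.37 to -0.14 without control repeat 1, and CAVIN3 stays near -0.20.

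To compare the genes with each other, levels were divided by the length of the canonical GENCODE transcript in kb. In the control, the order of the mean levels in normalized CPM per kb was EPHA2 (195), CAVIN3 (170), CAVIN1 (32.0), CAV1 (27.4), CAV2 (21.4), MET (21.2), AXL (6.76), CD44 (5.89) and EHD2 (4.43). Neighbours in this order differed beyond their spread only between CAVIN3 and CAVIN1 and between MET and AXL. In the knockdown, the order was CAVIN3 (196), EPHA2 (126), CAVIN1 (42.6), MET (19.1), CAV2 (13.7), CAV1 (13.6), AXL (5.21), CD44 (3.08) and EHD2 (0.697). There, the neighbours that overlapped were CAV2 and CAV1, and AXL and CD44. Overlap was judged across libraries. Within each knockdown library AXL was above CD44, at 5.25 against 2.41, 3.84 against 1.71 and 6.55 against 5.12. The order depends on the lengths used, since the authors' FPKM values took 1009 bases for CD44, whose canonical transcript has 5431.

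The genes that work with the members were taken as fixed lists, given as log2 differences of control over knockdown. These lists were written with earlier results of these data known, so the counts from them are a description. Over the 6 lists edgeR called 0 genes and DESeq2 called 1, ESRP2, against 5.55% of all genes in DESeq2. Beside the counts below stand the 19.2% of all genes with an unadjusted p under 0.05 in either direction and the 24.8% whose groups did not overlap. Of 13 other genes of caveola assembly and lipid rafts, 10 were tested and 0 were called, with a median log2 fold change of 0.026. An unadjusted p under 0.05 was found for 1 of the 10, below the 19.2% of all genes, and the groups did not overlap for 1 of the 10. That gene was FLOT2 (log2 fold change -0.53, adjusted p = 0.143 in edgeR), a flotillin of lipid rafts, which was higher in each knockdown library than in any control library. FLOT1, its partner, had a log2 difference of 0.22 (standard error 0.15), CAVIN2, another cavin, one of 0.50 (standard error 0.44), and FLNA, the actin-binding filamin that links to caveolin-1 and the most abundant gene of the list, one of 0.06 (standard error 0.28). With each library left out in turn, FLOT1 ranged from 0.11 to 0.30 and CAVIN2 from 0.21 to 0.82, and CAVIN2 was at 0.0033 with the FPKM-column reads of control repeat 2. EHD3, a relative of EHD2, had 0 counts in every library.

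All 4 AXL relatives and ligands were tested, and 0 were called or had an unadjusted p under 0.05 in edgeR. The receptor MERTK had a log2 difference of 0.62 (standard error 0.34, adjusted p = 0.351 in edgeR) and did not overlap between the groups, as 1 of the 4 genes, near the 24.8% of all genes. With a library left out it ranged from 0.38 to 0.98. The ligands GAS6 and PROS1 had log2 differences of -0.30 (standard error 0.23) and -0.11 (standard error 0.26), and their groups overlapped. GAS6 ranged from -0.53 to -0.062 with a library left out. Around MET, 9 of 11 genes were tested, with 0 called, 0 with an unadjusted p under 0.05 in edgeR and a median of -0.032. HGF, its ligand, had 0 counts in every library. ST14, the protease matriptase that can activate HGF, had a log2 difference of -0.34 (standard error 0.15, adjusted p = 0.261 in edgeR) and was higher in each knockdown library. The receptor MST1R, a relative of MET, had a log2 difference of 0.20 (standard error 0.21), and SPINT2, an inhibitor of HGF-activating proteases, one of -0.10 (standard error 0.14). With a library left out, MST1R ranged from 0.043 to 0.39 and SPINT2 from -0.18 to -0.034.

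Of 21 other Eph receptors and ephrins, 17 were tested, 0 were called and 5 had an unadjusted p under 0.05, each with the control higher, against 10.4% of all genes. The list's median log2 fold change was 0.21, with 11 genes above 0 and 6 below. EFNA3 and EFNA1, ligands of EPHA2 among other receptors, had log2 differences of 1.497 (standard error 0.48, adjusted p = 0.160 in edgeR) and 0.73 (standard error 0.25, adjusted p = 0.176), and EPHA3, a receptor of the same class, one of 1.79 (standard error 0.64, adjusted p = 0.188). These 3 genes and EFNB3 were higher in every control library than in any knockdown library, 4 of 17 tested, which is near the 24.8% of all genes. EPHA3 was at low counts, with 51, 22 and 14 in the control and 3, 13 and 8 in the knockdown. EFNA3 had 74, 42 and 22 in the control and 12, 20 and 15 in the knockdown. The remaining genes of the 5 were EPHA8 and EFNB3, and EFNB2, the most abundant of the list, had a log2 difference of -0.20 (standard error 0.33). EFNA1, EFNA2, EFNA3, EFNA4 and EPHA8 were called without control repeat 3, when 6.50% of all genes were called higher in the control. Without control repeat 1, EFNA3 was at 0.99 (adjusted p = 0.485 in edgeR), EFNA1 at 0.41 (adjusted p = 0.485) and EPHA3 at 1.12 (adjusted p = 0.544).

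For CD44, 16 of 20 genes of hyaluronan synthesis and turnover, membrane partners, sheddases and splicing were tested, and 0 were called, with a median of -0.038. An unadjusted p under 0.05 in edgeR was found for 1 of the 16, below the 19.2% of all genes. It was ESRP2, an epithelial splicing factor that acts on the variable exons of CD44, which had a log2 difference of -0.68 (standard error 0.17, adjusted p = 0.125 in edgeR) and was higher in each knockdown library than in any control library. It passed the call with no filter on low counts (adjusted p = 0.0254 in edgeR), without control repeat 3 (adjusted p = 0.0196 in edgeR) and in DESeq2 (adjusted p = 0.0144), when 3.01%, 10.5% and 5.55% of all genes were called, respectively. CEMIP, which takes part in hyaluronan breakdown, had a log2 difference of -0.49 (standard error 0.26), NF2, the merlin protein that binds the tail of CD44, one of -0.26 (standard error 0.15), and EZR, the linker ezrin, one of 0.17 (standard error 0.18). With a library left out, CEMIP ranged from -0.66 to -0.18 and NF2 from -0.34 to -0.15. The groups did not overlap for 4 of the 16, near the 24.8% of all genes, namely ESRP2, ESRP1, NF2 and ADAM10. Each of these was higher in the knockdown libraries. HAS1, a hyaluronan synthase, had 0 counts in every library. Gene counts do not show which CD44 exons were used, so splicing was not analysed here.

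CAV2, CAV1 and MET share a stretch of chromosome 7, and their neighbours were set beside them. The start of CAV2 lies 25.3 kb before that of CAV1, and the start of MET 147 kb after it. TES, which encodes a focal adhesion protein and starts 314 kb before CAV1, had a log2 difference of 0.48 (standard error 0.20, adjusted p = 0.236 in edgeR). CAPZA2, a subunit of the actin capping protein that starts 338 kb after CAV1, had a log2 difference of -0.014 (standard error 0.14), and ST7, which starts 428 kb after it, one of 0.26 (standard error 0.20). ST7 ranged from 0.11 to 0.38 with a library left out. TFEC and WNT2, at the ends of the stretch, had 0 counts in every library. Of the 5 neighbours that are not members, 3 were tested, 0 were called, and TES had an unadjusted p under 0.05 with the control higher, as had 10.4% of all genes. The median log2 fold change of these 3 was 0.26, beside 0.036 over all genes.

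**Figure D5:**
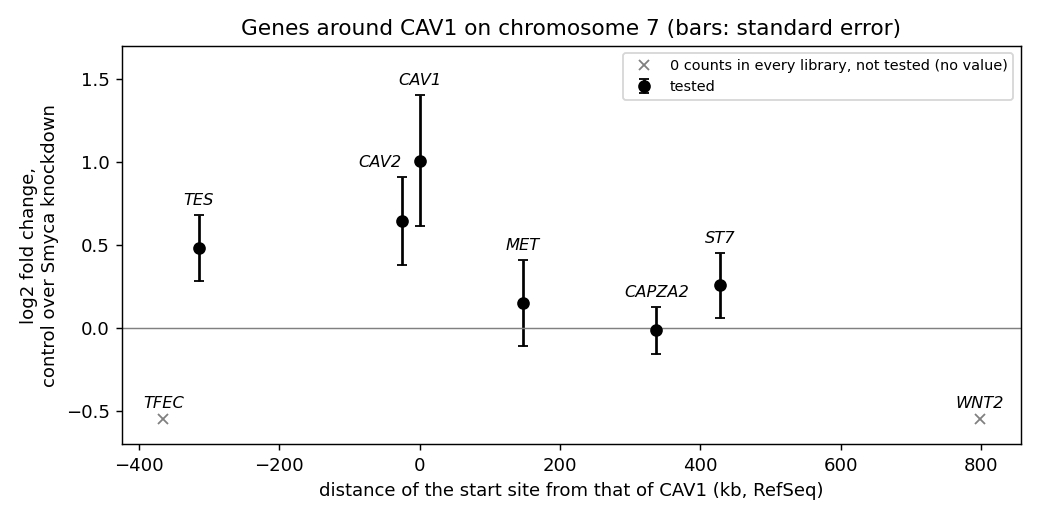
Log2 fold change of control over Smyca knockdown against the distance of each gene's start from that of CAV1 in kb, with bars for the standard error and crosses for genes with 0 counts. TES, CAV2 and CAV1 lie between 0.48 and 1.01, while MET, CAPZA2 and ST7 lie between -0.014 and 0.26.

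Lastly, the genes whose levels ran most like those of CAV1, AXL and CD44 were listed by Pearson's r over the 6 libraries, on log2(normalized CPM + 1) and among 9540 genes with a mean of at least 10 normalized CPM. For CAV1 they were TMCC1 (r = 0.999), ATOSB (r = 0.998) and SFXN3 (r = 0.996). For AXL they were PRSS16 (r = 0.994), USP54 (r = 0.992) and BRAF (r = 0.991), and for CD44 PHLDA1 (r = 0.991), RUBCN (r = 0.989) and E2F7 (r = 0.986). The 6 points share their libraries and the scaling of each, and the genes were picked as the highest of many, so these values are a description.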

How the data were processed

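RNA was sequenced from 3 control and 3 Smyca knockdown libraries of cells labelled MDA-MB231, grouped by the knockdown label and title of each sample. The authors depleted rRNA, made strand-specific libraries for paired-end sequencing, aligned the reads with TopHat 2.0.12 to hg38 (GRCh38), as the submitters' processing notes and the study's methods give it, and counted reads per gene with HTSeq. The annotation release and the strand setting are not given in the sources used here. The authors deposited the raw read count of 58302 Ensembl genes for each library. The counts were used for every test, except where the FPKM-column reads of control repeat 2 took their place in that library. Beside it the authors deposited FPKM values, which equal the counts scaled by gene length and library total in 5 libraries and not in control repeat 2. From that column, whole reads were recovered for 23593 genes, with 100% of values whole within 0.05 of a read among genes under 200 reads.

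Symbols came from GENCODE release 44 (57532 genes matched), and positions and upstream sequence from RefSeq on GRCh38.p14. Counts were fitted in R 4.3.3 with edgeR 4.0.16 (TMM, filterByExpr, quasi-likelihood test, Benjamini-Hochberg adjustment over 15075 genes). Total counts lay between 14999307 and 16501085, and the biological coefficient of variation was 25.2%. The study calls the libraries biological repeats, and p-values measure the spread between them. The code was tested on simulated counts. DESeq2 1.42.0, other size factors and filters, the repeat number as a block and each library left out in turn were tried, and the FPKM-column reads were an alternative chosen after seeing the data. The members and lists were chosen with earlier results of these data known. From each list the text names the genes called, otherwise the 3 with the lowest p, and the most abundant one. It also names all members, markers and chromosome 7 neighbours, except for 2 markers that are not reported here. Where a count of 5 or fewer was given, further genes were named after their values had been seen.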

Additional observations from a re-analysis of the deposited data

Results flagged for a closer look

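In control repeat 2, 3357 genes with 0 counts had an FPKM above 0, whereas 0 did so in each of the other 5 libraries. This drew attention because the main tests used the counts, and the FPKM column of that library entered only as an alternative. Only 1.5% of the genes of that library had an FPKM within 1% of the value that its counts give, against 100% in each of the others.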

How the results depend on the processing

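The number of genes called by edgeR over all genes, 4 of 15075, was 8 with total counts and no composition factor, 916 with no filter on low counts, 836 in DESeq2 and 10 with the FPKM-column reads of control repeat 2, a setting whose control group may hold 2 independent libraries. It ranged from 0 to 1628 when each library was left out in turn, with 1628 without control repeat 3. Same-numbered libraries deviated from their group means with low correlations of 0.0536, 0.0938 and 0.0207. Their mean was 0.056, against a mean of -0.027 for libraries of other numbers. Whether the repeat numbers pair the libraries was not tested. With the repeat number as a replicate block, 0 genes were called by edgeR and 2568 had an unadjusted p under 0.05. Where leaving out a library gave 0 calls in edgeR, the genes with such a p were 1730 (control repeat 1), 2479 (knockdown repeat 1) and 1687 (knockdown repeat 2). Of the 9 members, 2 were called with no filter and between 0 and 4 with a library left out, with 4 without control repeat 3. Of the related lists, leaving out the members that the chromosome 7 list holds, 1 gene was called with no filter and 1 in DESeq2, ESRP2 in both, and between 0 and 6 with a library left out, with 6 without control repeat 3. The median log2 fold change of the members lay between 0.32 and 0.80 over all settings. Directions turned for AXL (-0.14 to 0.60) and MET (-0.093 to 0.36) with a library left out, and for MET (-0.0032) with the FPKM-column reads. Among other genes, FLNA turned with the replicate block (-0.015), with the FPKM-column reads (-0.196) and with a library left out (-0.23 to 0.33). CAPZA2 turned with total counts (0.055), with at least 10 counts in every library (0.0025) and with a library left out (-0.062 to 0.059). PROS1 (-0.26 to 0.060), EFNB2 (-0.49 to 0.10) and EZR (-0.0011 to 0.28) turned with a library left out. Otherwise the 9 members kept their direction and their side of the threshold, except for 6 calls gained among 117 values. The 21 other tested genes named by the rule of the lists did so in 255 of 272 values. Genes named only after their values had been seen are not in this tally. EFNA2, EFNA4 and EPHA8 are examples, and all were called without control repeat 3. The cause of these changes was not tested. With 3 libraries a group, an exact permutation test cannot go below 0.1.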
